A study of Mus with 18 samples.

Results

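The genes described here encode the constitutive subunits of the 26S proteasome. They were chosen by name, as the rows of both FPKM files whose symbol is one of 31 listed subunit genes, and all 31 were found among the 21401 gene symbols of the series. Of these, 14 encode the 20S core particle (Psma1 to Psma7 and Psmb1 to Psmb7) and 17 encode the 19S regulatory particle (Psmc1 to Psmc6 and 11 Psmd genes). The rule uses symbols and no measured value. In C2C12 cells all 31 genes passed the filter on low values, a mean above 1 FPKM (fragments mapped to a gene, scaled to its transcript length and to library size). In muscle 30 passed, and Psmc2 did not.

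The 26S proteasome degrades proteins that carry chains of ubiquitin. Its barrel-shaped 20S core holds the proteolytic sites on inner beta subunits and is closed by rings of alpha subunits, while the 19S particle binds the ubiquitin chain, removes it, unfolds the substrate with a ring of ATPases and opens the core. In skeletal muscle the ubiquitin-proteasome pathway carries out much of the breakdown of contractile proteins during wasting, with the ligases Trim63 (MuRF1) and Fbxo32 (atrogin-1) marking substrates, and inflammatory signals can replace the constitutive catalytic subunits with inducible ones.

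RNA was sequenced from C2C12 cells, a mouse myoblast line, and from gastrocnemius muscle of male wild type C57BL/6 mice, each labelled control, LPS or LPS-MIC-1 with 3 libraries per group, 18 in all. The cells received 1 μg/mL lipopolysaccharide (LPS, a bacterial inflammatory stimulus) alone or with moringa isothiocyanate-1 (MIC-1), for which the labels give 10 μM. For the control cells the labels give saline vehicle, while the study's text names ethanol. The labels give 24 h for the LPS-MIC-1 cells and no time for the LPS cells, and the study's text gives 24 h for its cell assays. The mice received 10 mg/kg LPS intraperitoneally, alone or after MIC-1 by gavage at 80 mg/kg daily for 3 days, and muscle was taken 16 h after LPS, with vehicle-treated mice as controls. The C2C12 libraries are not stated to come from separate cultures, so p-values there measure the spread between these libraries, which may be technical. The LPS and LPS-MIC-1 groups differ by MIC-1, and no group received MIC-1 alone.

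Cell markers went against some labels. Of 8 myoblast markers, 2 to 6 were at 0 in each C2C12 library labelled control or LPS, with Myf5 and Msc at 0 in all of them, and the summed level of the list was 0.136 to 2.03 FPKM, against 740 to 962 FPKM in the libraries labelled LPS-MIC-1. Of 12 macrophage markers, 11 were in the files, and they summed to 9798 to 9830 FPKM in control libraries, 6956 to 7132 FPKM under LPS and 80.0 to 269 FPKM with MIC-1 added, where replicate 1 was the highest. In the muscle libraries the sum of 10 fibre genes ranged from 189343 to 194373 FPKM for control, from 184365 to 188191 FPKM for LPS and from 146005 to 157946 FPKM for LPS-MIC-1, and replicate 3 of LPS-MIC-1 held more macrophage signal (182 FPKM) than any other muscle library. The sum of 6 inflammatory genes was 3.32 to 4.81, 3486 to 3542 and 557 to 636 FPKM in the C2C12 control, LPS and LPS-MIC-1 libraries, and 0.840 to 1.34, 2.11 to 3.10 and 1682 to 1885 FPKM in those of muscle. Muscle labelled LPS thus stood near control in these genes and muscle labelled LPS-MIC-1 far above both, which puts the LPS and LPS-MIC-1 labels of muscle in doubt. Muscle groups are named by their labels throughout, and every direction between them rests on those labels. Comparisons of C2C12 LPS-MIC-1 with LPS or control set libraries with myoblast markers beside libraries with macrophage markers, and treatment and cell identity cannot be told apart there. In bulk RNA, fewer cells of a type and less RNA per cell cannot be told apart either.

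The subunit genes were among the more abundant transcripts of both tissues. The median subunit stood at 102 ± 2.55 FPKM in C2C12 control libraries (SD, n = 3) against a median of 11.7 FPKM over all genes tested, and at 88.7 ± 1.22 FPKM in control muscle against 6.23 FPKM. FPKM is scaled to transcript length, so levels can be set side by side within a library. In C2C12 controls the highest subunits were the 20S beta genes Psmb3 (269.6 ± 13.8 FPKM) and Psmb4 (245 ± 2.27 FPKM) and the lid gene Psmd8 (240.1 ± 4.97 FPKM), and the lowest above Psmc2 was Psma3 (40.7 ± 1.23 FPKM). Psmb4 and Psmd8 did not differ beyond their spread. In control muscle the order began with Psmb7 (251 ± 2.67 FPKM), Psmb6 (215 ± 8.44 FPKM), Psmb3 (193 ± 11.8 FPKM) and Psmd8 (180.2 ± 4.77 FPKM), of which Psmb3 and Psmd8 were within their spread, and it ended with Psmd14 (25.9 ± 1.42 FPKM).

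Neighbours in the order of levels were often close. Of 30 neighbouring pairs, 14 differed by more than the sum of their SDs in control libraries of either tissue, and only 2 did in C2C12 LPS-MIC-1, whose replicates were the most spread. There the median coefficient of variation over the subunits was 11.6%, against 3.01% in control and 3.34% in LPS, and replicate 3 was the highest of its group for all 31 genes. Its summed FPKM over all genes was 797734, against 667207 and 680837 in the other LPS-MIC-1 libraries.

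Psmc2, which encodes an ATPase of the 19S ring, stood far below every other subunit. It measured 2.49, 1.45 and 1.70 FPKM in the C2C12 control libraries, 0.515, 1.04 and 1.88 FPKM in those labelled LPS, 0.822, 0.667 and 1.60 FPKM in those labelled LPS-MIC-1, and between 0.229 and 0.857 FPKM in the 9 muscle libraries. The next lowest subunit was 21.7 times higher in C2C12 controls and 62.9 times higher in control muscle. The ring holds a copy of each ATPase, and its other members ranged from 45.9 to 105 FPKM in C2C12 controls. What lowers the value of this gene was not tested, and no difference was called for it.

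**Figure D1:**
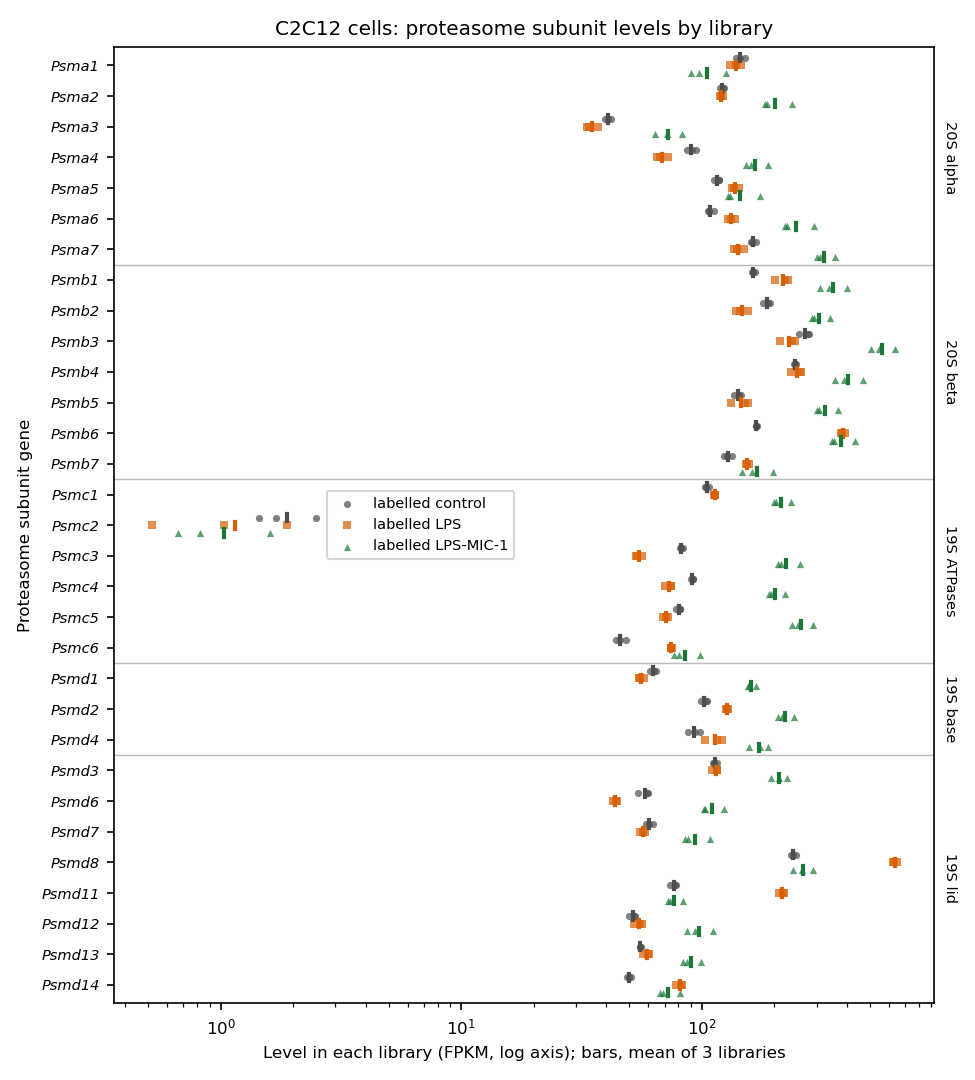
Level of each proteasome subunit gene in each of the 9 C2C12 libraries, in FPKM on a log axis, with 1 symbol per library (grey circles control, orange squares LPS, green triangles LPS-MIC-1) and a bar at the mean of 3. Most green symbols lie to the right of the others, Psmd8 and Psmd11 are highest in the LPS libraries, and Psmc2 lies near 1 FPKM in all of them.

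In the C2C12 libraries labelled LPS, the subunits did not move together against control. Psmd11, a lid subunit that helps hold the lid to the core, Psmd8, another lid subunit, and Psmb6, the catalytic subunit of the caspase-like site, each rose more than 2-fold. Psmc6, a 19S ATPase, and Psmd14, the deubiquitinase of the lid, rose less. The ATPase genes Psmc3 and Psmc4 and the lid gene Psmd6 fell. In limma with Benjamini-Hochberg adjustment, 10 of the 31 subunits were higher and 7 lower at an adjusted p under 0.05, against a background of 31.1% of all 10877 genes tested called higher and 32.1% called lower. The median log2 fold change was 0.03 for the subunits and 0 for all genes, with a range from -0.79 to 1.50 over the subunits.

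Psmd11 measured 77.3, 78.1 and 73.8 FPKM in control and 209.5, 219 and 219 FPKM in LPS. The groups were far apart, and the log2 fold change was 1.50 (SE 0.0596, adjusted p = 3.83e-07, limma). Psmd8 measured 236, 246 and 239 FPKM in control against 625, 649 and 631 FPKM, a log2 fold change of 1.40 (SE 0.0671, adjusted p = 9.08e-07). With these values Psmd8 became the most abundant subunit in the LPS libraries, ahead of Psmb6 beyond their spread. Psmb6 went from 168, 169 and 169 FPKM to 378, 384 and 395 FPKM (log2 fold change 1.19, SE 0.0819, adjusted p = 5.92e-06). These were the 3 subunits that also passed the study's own thresholds for C2C12 cells (adjusted p below 0.001, change beyond 1 on the log2 scale), which 10.9% of all genes passed upwards. No subunit passed them downwards, where 10.0% of all genes did.

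Smaller differences lay on both sides of 0. Psmc6 rose from 45.5, 43.9 and 48.2 FPKM to 74.3, 75.1 and 74.4 FPKM (log2 fold change 0.70, adjusted p = 0.000204) and Psmd14 from 49.0, 50.9 and 50.0 FPKM to 78.4, 82.0 and 83.0 FPKM (0.70, adjusted p = 5.47e-05). Psmb1, Psma6, Psmb7 and the scaffold and ubiquitin-receptor genes Psmd2 and Psmd4 made up the rest of the higher calls, with log2 fold changes between 0.27 and 0.40. On the lower side Psmc3 went from 81.7, 81.0 and 83.3 FPKM to 56.7, 53.8 and 53.3 FPKM (-0.59, adjusted p = 0.000236). The other lower calls were Psma4, Psmd6, Psmb2, Psmc4, Psma7 and the scaffold gene Psmd1, between -0.41 and -0.17.

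The split depended on scaling. When each library was divided by its FPKM sum, which moved the median of all genes by -0.33, 5 subunits were higher and 19 lower, where 19.6% and 45.5% of all genes were. After quantile normalization 12 were higher and 12 lower, where 29.3% and 36.4% of all genes were. Psmb6, Psmc6, Psmd8, Psmd11 and Psmd14 were called higher with the deposited values, quantile normalization and the FPKM sum alike. Psma4, Psma7, Psmb2, Psmc3, Psmc4, Psmd1 and Psmd6 were called lower under the same scalings. Median-ratio factors were equal in all libraries of a tissue, so they repeat the deposited values and add no check. Psma6, Psmb7, Psmd2 and Psmd4 turned to values between -0.07 and -0.03 with the FPKM sum and were not called, and Psmb1 stood at 0.07 there and was not called either. Inflammatory genes moved in the same comparison, with Lcn2 going from 0.530 to 1.92 FPKM in control to between 2647 and 2697 FPKM in LPS, while 6 of 6 cell cycle genes were lower (background 32.1%). Their part in the subunit differences was not tested. LPS-MIC-1 replicate 3 enters this comparison only through the shared estimate of spread and the mean level used in the filter. With this library 10877 genes were tested, and 10796 without it. Without it 13 subunits were higher and 11 lower, where 35.1% and 36.2% of all genes were.

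In the C2C12 libraries labelled LPS-MIC-1, most subunits were higher than in those labelled LPS. The largest rises were in the 19S base: the ATPase genes Psmc3, Psmc5 and Psmc4 and the scaffold gene Psmd1. Psmd11 and Psmd8, which were raised in LPS, were lower again. Of the 31 subunits 22 were higher (10 of 14 in the 20S, 12 of 17 in the 19S) and 3 lower, against 41.4% and 43.2% of all genes called higher and lower. The median log2 fold change was 0.80 for the subunits, 0.81 for the 20S and 0.80 for the 19S, and -0.05 for all genes. Quantile normalization lowered the median of the subunits to 0.46. These are the libraries that also differ in myoblast and macrophage markers, and the part of cell identity was not tested.

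Psmc3 measured 56.7, 53.8 and 53.3 FPKM in LPS libraries against 213, 207 and 255 FPKM with MIC-1 (log2 fold change 2.04, SE 0.0767, adjusted p = 6.5e-08, limma). Psmc5 went from 68.9, 71.0 and 72.2 FPKM to 251, 237 and 289.7 FPKM (1.87, SE 0.0708, adjusted p = 6.74e-08). Psmd1 went from 57.3, 55.5 and 54.7 FPKM to 156, 155 and 168 FPKM (1.52, SE 0.0458, adjusted p = 2.09e-08). None of these groups overlapped, and the lowest LPS-MIC-1 library of each gene stood more than 2-fold above the highest LPS library. Psmc4 followed, with 74.5, 70.0 and 74.4 FPKM against 189.6, 193 and 221 FPKM (1.46, adjusted p = 1.18e-07). Beyond these, Psmd6, Psma4, Psmb3, Psma7, Psmb5, Psmb2 and Psma3 rose with log2 fold changes between 1.05 and 1.32, so that 11 subunits passed the study's thresholds upwards, where 24.3% of all genes did.

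The exceptions were few. Psmd11 fell to 72.4, 73.7 and 83.6 FPKM, a log2 fold change of -1.50 (SE 0.0596, adjusted p = 8.74e-08), and Psmd8 to 261, 240.2 and 289.7 FPKM (-1.27, SE 0.0671, adjusted p = 4.22e-07), and both passed the study's thresholds, as did 25.6% of all genes downwards. Psma1, a subunit of the alpha ring, was the third lower call, from 131, 139 and 146 FPKM to 90.4, 97.1 and 126 FPKM (-0.42, adjusted p = 0.00921). Psmb6 measured 347, 356 and 435 FPKM (-0.03, SE 0.0819, adjusted p = 0.727) and was called lower after quantile normalization (-0.32, adjusted p = 4.52e-06), and Psma5, Psmb7, Psmc2, Psmc6 and Psmd14 were not called either. The same 22 higher and 3 lower calls held with the deposited values, quantile normalization and the FPKM sum. Quantile normalization added 4 lower calls, where 42.7% and 42.2% of all genes were called higher and lower, and dividing by the FPKM sum added 1 of each kind, where 40.1% and 43.9% were. Without LPS-MIC-1 replicate 3, the library highest for every subunit, the lower calls numbered 5, with Psmb6 (-0.13, adjusted p = 0.00266) among them. Over all genes 45.3% were called lower in that fit.

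Against control, which shares the LPS-MIC-1 libraries with the comparison above, 27 subunits were higher and 1, Psma1, lower (background 39.5% and 41.8%). The median log2 fold change was 0.89, against -0.06 for all genes. Divided by the FPKM sum, which moved the median of all genes by -0.37, 25 were higher and 4 lower with a median of 0.51, where 29.7% and 53.0% of all genes were called. After quantile normalization 25 were higher and 3 lower, also with a median of 0.51, where 39.1% and 42.7% were. Without LPS-MIC-1 replicate 3 the lower calls numbered 2, where 44.3% of all genes were called lower. Psmc5 (1.69, SE 0.0708), Psmc3 (1.45, SE 0.0767) and Psmd1 (1.35, SE 0.0458) led again. Psmd11 was not called, with a log2 fold change of 0.00 (SE 0.0596, adjusted p = 0.987), but was lower after quantile normalization (-0.28) and with the FPKM sum (-0.37). Psmd8 was not called either (0.13, SE 0.0671, adjusted p = 0.104) and was lower under the same scalings (-0.39 and -0.24). Psmb6 was higher than control by a log2 fold change of 1.16 (SE 0.0819, adjusted p = 2.84e-06).

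**Figure D2:**
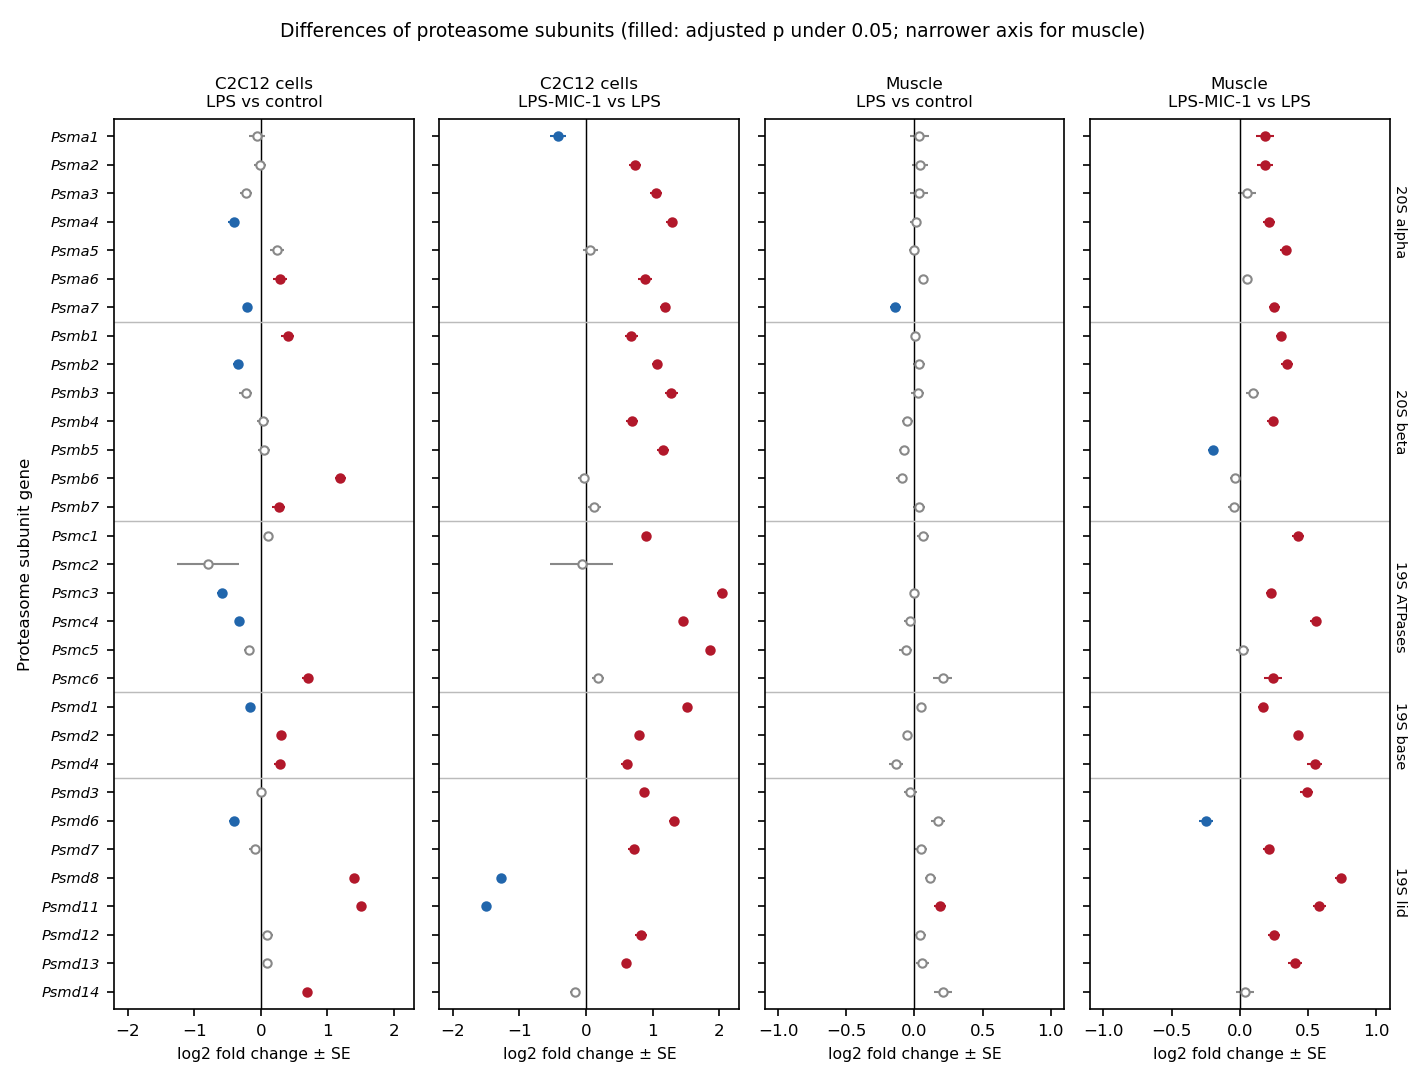
Log2 fold change of each subunit with its standard error for LPS against control and LPS-MIC-1 against LPS, in C2C12 cells (left pair) and muscle (right pair, narrower axis), filled where the adjusted p was under 0.05 (red higher, blue lower) and open where it was not. Calls lie on both sides of 0 for C2C12 LPS against control, only Psmd11 and Psma7 are filled for muscle LPS against control, and in both LPS-MIC-1 panels most filled points are on the right.

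In muscle labelled LPS, the subunits stood close to their control levels. The 30 subunits tested had log2 fold changes between -0.14 and 0.21 and a median of 0.03, against 0.01 for all genes. Psmd11 was the only one called higher and Psma7, of the alpha ring, the only one called lower, where 8.25% and 7.48% of the 9475 genes tested were called. Psmd11 measured 43.8, 43.1 and 42.5 FPKM in control and 49.1, 47.8 and 50.5 FPKM in LPS (0.19, SE 0.0459, adjusted p = 0.0283, limma), and Psma7 92.4, 97.9 and 101 FPKM against 88.9, 87.6 and 87.7 FPKM (-0.14, SE 0.0386, adjusted p = 0.0433). Both groups of libraries were apart for each gene, though by little. The Psmd11 call was lost without any 1 of the control libraries or without LPS replicate 1 or 3 (adjusted p up to 0.0962). The Psma7 call was lost without control replicate 2 or 3, any 1 LPS library or LPS-MIC-1 replicate 2 or 3 (up to 0.12), and with the FPKM sum (0.0682). Without LPS-MIC-1 replicate 1 or 2 the higher calls numbered 2 and 3, where 7.83% and 7.64% of all genes were called higher.

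The subunits next in size were not called. Psmd14 measured 26.8, 24.3 and 26.7 FPKM in control and 28.5, 32.8 and 28.8 FPKM in LPS (0.21, SE 0.0685, adjusted p = 0.0769). Psmc6 measured 37.4, 41.6 and 39.6 FPKM against 43.4, 47.5 and 45.8 FPKM (0.21, SE 0.0662, adjusted p = 0.0739), and Psmd6 103, 106 and 109 FPKM against 114, 121 and 124 FPKM (0.17, SE 0.0503, adjusted p = 0.0509). Groups of libraries did not overlap for 7 subunits upwards and 4 downwards, where 18.8% and 17.7% of all genes did not. No tested subunit passed the study's thresholds for muscle in any comparison. They were taken here as an adjusted p below 0.05 and a change beyond 1 on the log2 scale, in limma. The study's muscle diagrams give that change with P below 0.05, not called adjusted, and it used DESeq2. The largest change of a subunit in muscle was 0.86 (LPS-MIC-1 against control). Upwards and downwards, 0.654% and 0.591% of all genes passed them in LPS against control, 9.67% and 5.44% in LPS-MIC-1 against LPS, and 9.33% and 6.12% in LPS-MIC-1 against control.

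**Figure D3:**
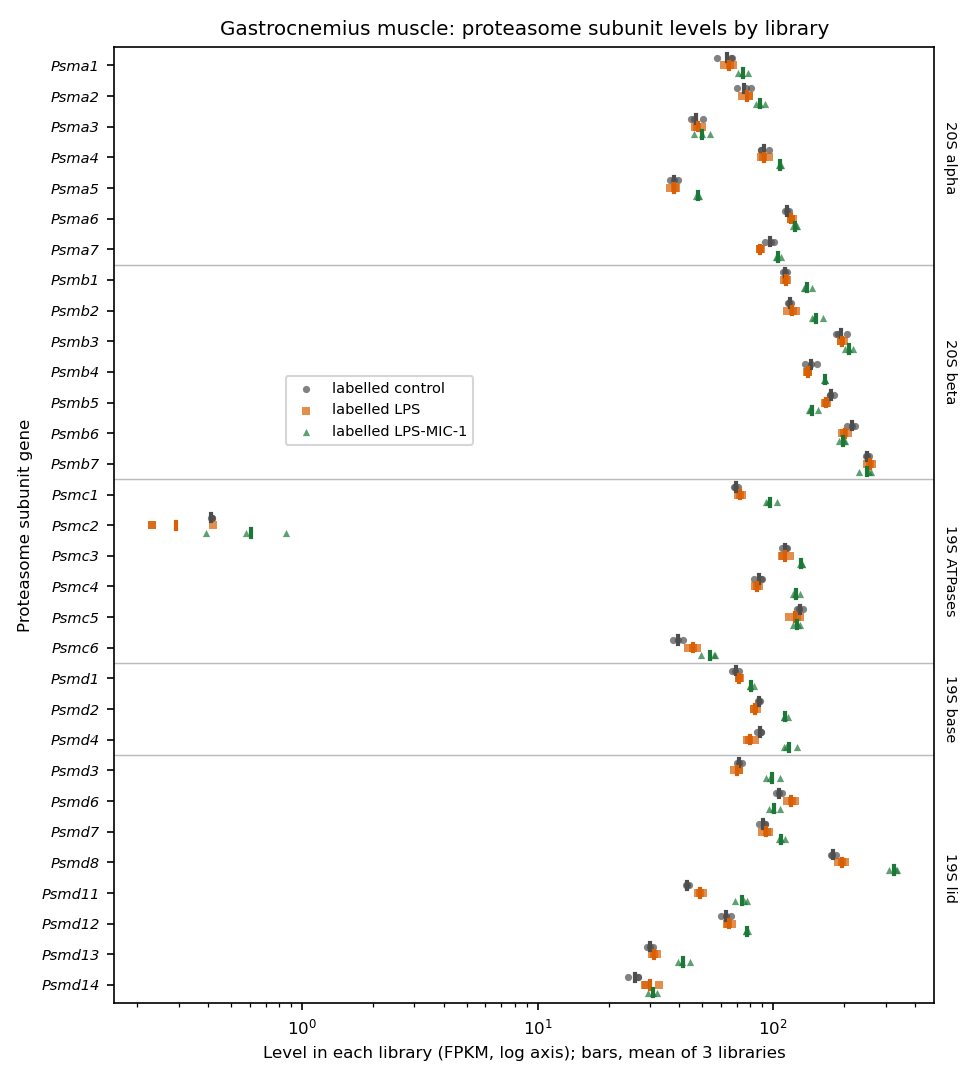
Level of each proteasome subunit gene in each of the 9 gastrocnemius libraries, in FPKM on a log axis, with symbols as in the plot of C2C12 levels. Control and LPS symbols lie close together, the LPS-MIC-1 symbols lie to the right for most subunits and furthest for Psmd8 and Psmd11, and Psmc2 lies below 1 FPKM.

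In muscle labelled LPS-MIC-1, most subunits were higher than in muscle labelled LPS, with log2 fold changes of at most 0.74. The leading subunits were Psmd8, Psmd11 and Psmd3 of the lid, the ATPase Psmc4 and the ubiquitin receptor Psmd4. Psmb5, which carries the chymotrypsin-like site, and Psmd6 fell slightly. Of the 30 subunits 21 were higher (8 of 14 in the 20S, 13 of 16 in the 19S) and 2 lower, against 28.3% and 28.2% of all genes. The median log2 fold change was 0.24, with 0.19 for the 20S, 0.33 for the 19S and -0.01 for all genes.

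Psmd8 measured 201, 196 and 189 FPKM under LPS against 336, 333 and 310.3 FPKM with MIC-1 (log2 fold change 0.74, SE 0.0403, adjusted p = 1.33e-06, limma). Psmd11 measured 49.1, 47.8 and 50.5 FPKM against 77.4, 75.0 and 69.2 FPKM (0.58, SE 0.0459, adjusted p = 1.24e-05). Psmc4 went from 86.7, 85.2 and 83.4 FPKM to 130.2, 124 and 122 FPKM (0.56, SE 0.0415, adjusted p = 8.84e-06). All 3 genes were apart between the groups by more than the spread within either. Psmd4 went from 79.0, 77.1 and 83.5 FPKM to 111, 126 and 114 FPKM (0.55, SE 0.0528, adjusted p = 4.19e-05), and Psmd3 from 71.4, 68.5 and 71.5 FPKM to 93.7, 107 and 97.1 FPKM (0.49, SE 0.0499, adjusted p = 5.83e-05). With its rise, Psmd8 took the first place in the order of levels that Psmb7 held in the other muscle groups.

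The lower subunits moved less. Psmb5 measured 168, 166 and 169 FPKM in LPS and 143, 154 and 143 FPKM in LPS-MIC-1 (-0.19, SE 0.0365, adjusted p = 0.00213). Psmd6 measured 114, 121 and 124 FPKM against 107, 95.7 and 99.7 FPKM (-0.25, SE 0.0503, adjusted p = 0.00328), which is near its control values of 103, 106 and 109 FPKM. When each library was divided by its FPKM sum, which moved the median of all genes by 0.13, neither was called and 26 subunits were higher and none lower, where 35.7% and 20.5% of all genes were called. After quantile normalization, which moved it by -0.12, 17 were higher and 3 lower, where 23.0% and 35.9% were. Psmd8, Psmd11, Psmc4, Psmd4 and Psmd3 were among 17 subunits called higher with the deposited values, quantile normalization and the FPKM sum. No lower call held under all of these scalings.

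Against control, again with shared LPS-MIC-1 libraries, 23 subunits of muscle were higher and 2 lower (background 30.0% and 28.5%), with a median log2 fold change of 0.24 and 0.01 for all genes. The FPKM sum moved the median of the subunits to 0.39 and quantile normalization to 0.16. The lower ones were Psmb5 (-0.27, SE 0.0365, adjusted p = 0.000309, limma) and Psmb6 (-0.13, SE 0.0405, adjusted p = 0.0262). Psmb5 was also called lower after quantile normalization and with the FPKM sum. Psmb6 turned to 0.03 with the FPKM sum. Psmb5 alone was called lower without control replicate 2 or 3 or LPS-MIC-1 replicate 3, where 25.3%, 25.5% and 26.7% of all genes were. Psmd8 (0.86) and Psmd11 (0.77) had the highest values. In each experiment these lid genes, picked after their values were seen, were highest in the group with the highest inflammatory marker sum. That group is LPS in C2C12 cells and LPS-MIC-1 in muscle, where most subunits were highest. Psmd14 also averaged highest in C2C12 LPS (81.1 FPKM, against 49.9 FPKM in control and 72.7 FPKM in LPS-MIC-1). The lid gene Psmd6 went the other way, with its lowest averages in C2C12 LPS (43.8 FPKM) and in muscle LPS-MIC-1 (101 FPKM). Saa3, an acute-phase gene, measured 626 to 709 FPKM in C2C12 LPS and 489 to 547 FPKM in muscle LPS-MIC-1. Cxcl1, a chemokine of the same list, stood the other way in C2C12 cells, at 0.0762 to 1.15 FPKM in LPS and 402 to 574 FPKM in LPS-MIC-1, where it made up most of the sum. The part of inflammatory signalling in the subunit levels was not tested.

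As a whole, the subunits took a larger share of the summed FPKM in both LPS-MIC-1 groups. In C2C12 cells the share was 0.629% ± 0.00193 for control, 0.611% ± 0.00793 for LPS and 0.882% ± 0.0217 for LPS-MIC-1 (SD, n = 3 each), and in muscle it was 0.413% ± 0.00263, 0.424% ± 0.00479 and 0.541% ± 0.00486. In this share the libraries of the groups did not overlap in either tissue. The summed level of the subunits averaged 3457, 4248 and 6311 FPKM in the same C2C12 groups, so it was higher in LPS than in control. In muscle it averaged 3033, 3053 and 3562 FPKM. The total over all genes, which the share is taken from, also moved. It was 547475 to 552373 FPKM in C2C12 control and 687390 to 701659 FPKM in LPS. In muscle it was 715513 to 728858 FPKM in LPS and 634197 to 672157 FPKM in LPS-MIC-1. The ratio between the summed levels of the particles rested in part on 2 lid genes. The summed 20S level was 1.52 ± 0.0163 times the summed 19S level in the C2C12 controls, stood at 1.19 ± 0.0491 times under LPS, and at 1.47 ± 0.0546 times with MIC-1, where the libraries overlap those of control. In muscle the ratio was 1.34 ± 0.0159, 1.30 ± 0.00478 and 1.09 ± 0.0135 for the same groups, which did not overlap. Psmd8 and Psmd11 together averaged 316 FPKM of the 19S sum of 1370 FPKM in C2C12 controls and 851 of 1944 FPKM in C2C12 LPS, while the median 19S subunit averaged 76.4 and 73.2 FPKM. Without these genes, a choice made after their values were seen, the C2C12 ratio was 1.98 ± 0.0209 for control, 2.11 ± 0.101 for LPS and 1.69 ± 0.0581 for LPS-MIC-1. The fall from control to LPS was then gone, with LPS above control. In muscle the ratio without them was 1.62 ± 0.0217, 1.59 ± 0.00772 and 1.42 ± 0.0198, still lowest in LPS-MIC-1. This ratio is taken within a library, so a factor applied to a whole library does not move it. No test was made on these sums, because the genes were chosen with results of these data known.

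**Figure D4:**
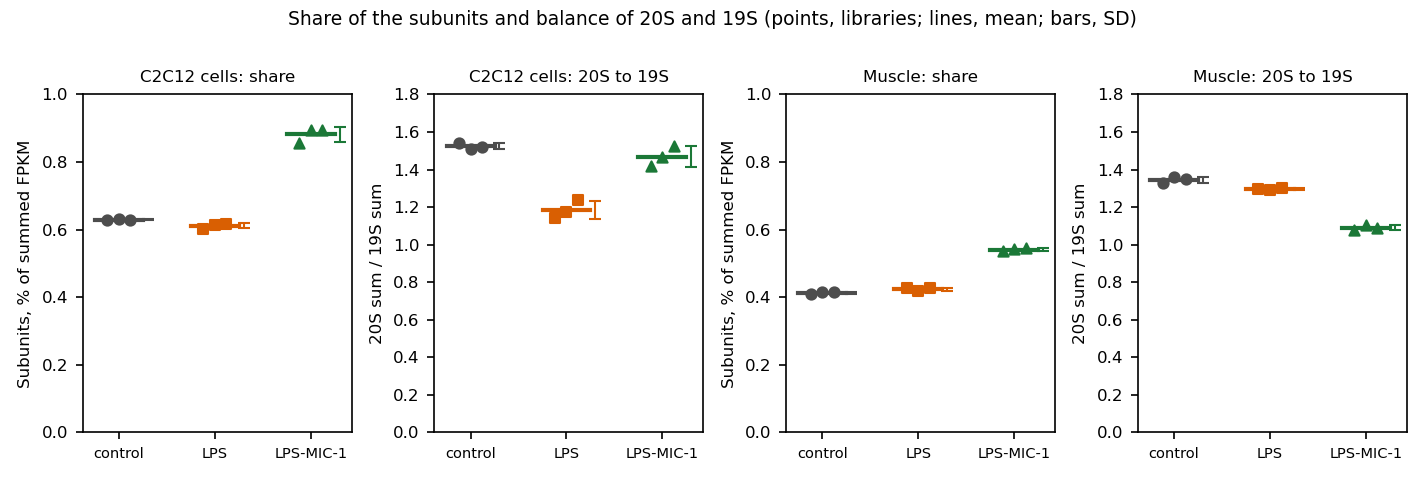
Share of the summed FPKM held by the subunits, in percent, and ratio of summed 20S to summed 19S FPKM, in each library (points), with the group mean (line) and SD (bar) of 3 libraries. The share is highest in LPS-MIC-1 in both tissues, and the ratio is lowest in LPS for C2C12 cells and lowest in LPS-MIC-1 for muscle. Without Psmd8 and Psmd11 the C2C12 ratio is 1.98 in control and 2.11 in LPS.

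The profile over 30 subunits (Psmc2 left out) was close to fixed in muscle and less so in C2C12 cells. Spearman's rho of group means between muscle control and LPS was 0.99 and between control and LPS-MIC-1 0.96, while between C2C12 LPS and LPS-MIC-1 it was 0.61. Control muscle resembled C2C12 LPS-MIC-1 (rho 0.80) more than C2C12 control (0.67) or LPS (0.49). Of these, only the C2C12 LPS-MIC-1 libraries hold myoblast markers, while C2C12 control and LPS hold macrophage markers. Treatment and cell identity cannot be told apart in these profiles. These are descriptions over subunits, which share libraries and are not replicates.

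The tissues were also set side by side by whether groups of libraries overlapped. Of the 30 subunits tested in both, 7 were apart in the same direction in LPS against control and 3 in opposite directions, where 14.1% and 15.1% of the 8422 genes tested in both were. In LPS-MIC-1 against LPS 19 were apart in the same direction and 5 in opposite ones, where 22.0% and 33.2% of all genes were. In LPS-MIC-1 against control, with shared libraries, 20 and 3 were, where 21.1% and 32.8% of all genes were.

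The 3 constitutive catalytic subunits behaved apart from each other. In C2C12 cells Psmb5 stood at 145, 143 and 135 FPKM for control, at 132, 151 and 155 FPKM for LPS and at 300.0, 307 and 369 FPKM for LPS-MIC-1. It was called with MIC-1 (log2 fold change 1.15 against LPS, SE 0.093, adjusted p = 5.83e-06). In LPS against control it was not called (0.05, adjusted p = 0.695), but was lower with the FPKM sum (-0.29, adjusted p = 0.00246). Psmb6 rose in LPS instead, as given above. Psmb7, which carries the trypsin-like site, measured 133, 124 and 128 FPKM, 153, 156 and 154 FPKM and 162, 147 and 199 FPKM, and its call in LPS (0.27, SE 0.0987, adjusted p = 0.0431), which turned to -0.07 with the FPKM sum, was lost in 7 of the 9 fits that left out 1 library, those without any 1 control or LPS library or without LPS-MIC-1 replicate 1. In muscle Psmb7 measured 251, 249 and 254 FPKM for control, 264, 249 and 257 FPKM for LPS and 256, 261 and 232 FPKM for LPS-MIC-1, with no call. Psmb6 in muscle measured 207, 216 and 224 FPKM, 196, 200.5 and 209 FPKM and 199.6, 202 and 190.3 FPKM.

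The inducible counterparts Psmb8, Psmb9 and Psmb10, which replace Psmb5, Psmb6 and Psmb7 in the immunoproteasome, were set against them as a ratio within each library. In C2C12 cells Psmb8 stood at 50.2% to 53.6% of Psmb5 for control, at 37.3% to 43.7% for LPS and at 0.142% to 0.470% for LPS-MIC-1. Psmb9 was 23.7% to 24.5%, 7.74% to 8.15% and 0.159% to 0.519% of Psmb6 in the same groups. Psmb10 was 37.9% to 41.7%, 12.5% to 13.1% and 17.8% to 21.4% of Psmb7. The inducible genes thus stood lowest against their counterparts in LPS-MIC-1 for Psmb8 and Psmb9 and in LPS for Psmb10, with no overlap between groups. In an exact two-sided permutation test of the log2 ratios each of these 9 comparisons gave p = 0.1, the smallest that 3 against 3 libraries allow, and 0.129 after Benjamini-Hochberg adjustment over 18 comparisons.

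The level of Psmb8 itself lay between 57.5 and 58.9 FPKM under LPS and between 0.435 and 1.41 FPKM with MIC-1 in C2C12 cells (log2 fold change -5.82, SE 0.341, adjusted p = 7.74e-07, limma), and that of Psmb9 by -4.83 (SE 0.299, adjusted p = 1.07e-06). Macrophage markers fell over the same libraries, as given above, and their part was not tested. Psmb10 fell in LPS against control by 1.38 on the log2 scale (SE 0.110, adjusted p = 1.32e-05) and rose in LPS-MIC-1 against LPS by 0.75 (SE 0.110, adjusted p = 0.000256).

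In muscle Psmb8 stood at 2.65% to 3.35% of Psmb5 for control, at 2.35% to 2.48% for LPS and at 6.71% to 8.91% for LPS-MIC-1. It rose from 3.95, 3.90 and 4.21 FPKM in LPS to 9.60, 11.5 and 12.7 FPKM in LPS-MIC-1 (log2 fold change 1.45, SE 0.115, adjusted p = 1.27e-05), in which replicate 3, the library with more macrophage signal, was the highest. Psmb9 (0.38, SE 0.293, adjusted p = 0.295) and Psmb10 (0.07, SE 0.065, adjusted p = 0.374) were not called, though Psmb10 was higher with the FPKM sum (0.20, adjusted p = 0.0444). In LPS against control Psmb10 was lower (-0.24, adjusted p = 0.0385, limma), a call lost with the FPKM sum (adjusted p = 0.0798). The log2 ratios of Psmb8 to Psmb5 and of Psmb10 to Psmb7 differed there by -0.29 and -0.28 with no overlap (exact permutation p = 0.1, 0.129 adjusted). That of Psmb9 to Psmb6 overlapped. The log2 ratios of Psmb8 to Psmb5 and of Psmb9 to Psmb6 were higher in LPS-MIC-1 than in LPS by 1.67 and 0.43 with no overlap between libraries, each with an exact permutation p of 0.1 (0.129 adjusted), while that of Psmb10 to Psmb7 overlapped (0.11, exact permutation p = 0.4).

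**Figure D5:**
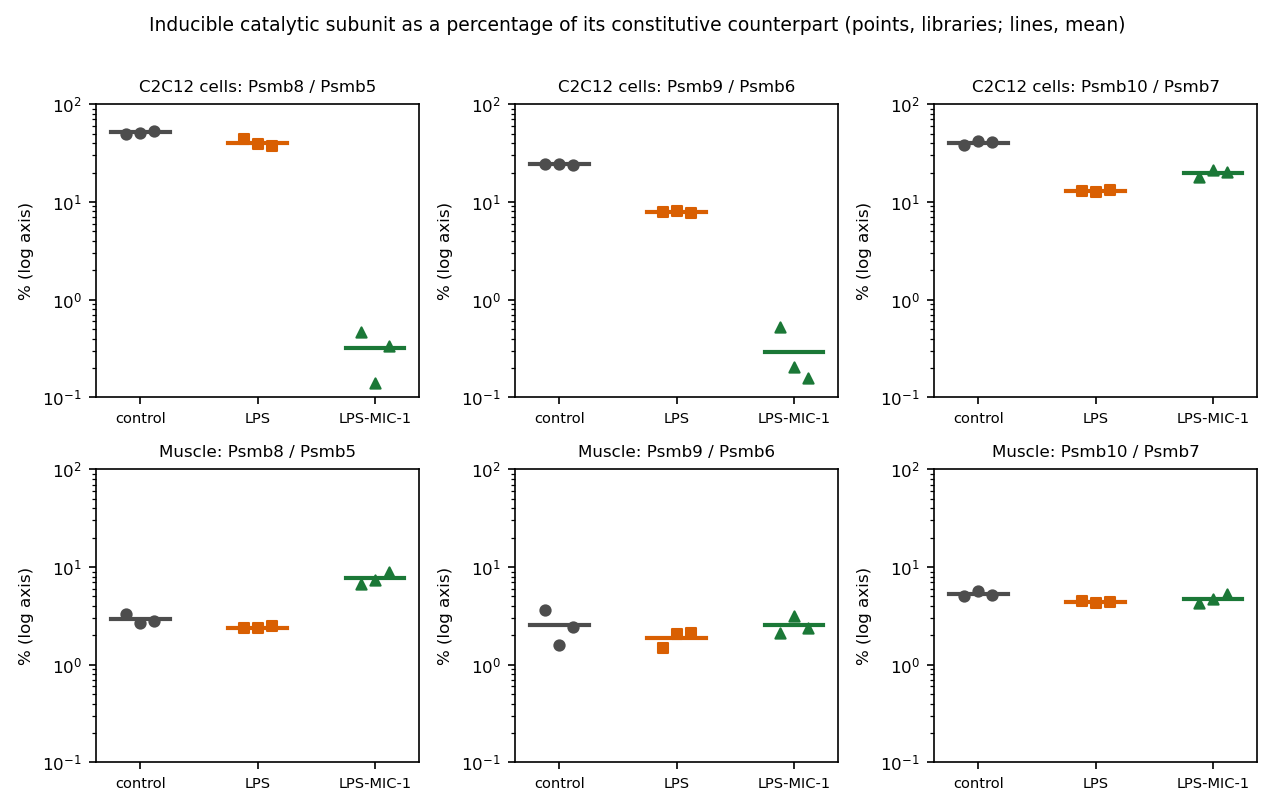
Level of each inducible catalytic subunit as a percentage of its constitutive counterpart in each library (points), with the group mean (line), on a log axis, for C2C12 cells (top) and muscle (bottom). In C2C12 LPS-MIC-1 libraries Psmb8 and Psmb9 lie below 1%, and in muscle the Psmb8 percentage is highest in LPS-MIC-1.

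Other genes of the pathway were read from lists of activators, assembly factors, regulators, ubiquitin-activating enzymes and ligases. No test was made on the counts of these lists, which are set beside the share of all genes called. Of the 8 assembly chaperone genes tested, which help build the particle, 1 was higher and 6 lower in C2C12 LPS against control (background 31.1% and 32.1%). In LPS-MIC-1 against LPS 6 were higher and 2 lower (background 41.4% and 43.2%). Psmg2, which helps form the alpha ring, had the largest rise, from 15.5, 14.7 and 14.8 FPKM to 58.9, 65.8 and 74.6 FPKM (log2 fold change 2.13, SE 0.0847, adjusted p = 8.6e-08, limma). Psmg3 led the falls in LPS against control (-0.95, SE 0.0896, adjusted p = 3.5e-05). In muscle the same list had 2 lower in LPS against control, with none higher (background 7.48% lower and 8.25% higher). In LPS-MIC-1 against LPS 1 was higher and 2 lower (background 28.3% and 28.2%). Psmg1 fell there from 11.0, 12.4 and 11.6 FPKM to 7.69, 7.78 and 6.55 FPKM (-0.66, SE 0.0827, adjusted p = 0.000199). Pomp, the maturation factor of the core, averaged 149 FPKM in the C2C12 controls, 119.6 FPKM under LPS and 375 FPKM with MIC-1 (log2 fold change 1.64 against LPS, SE 0.0802, adjusted p = 2.64e-07).

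Among 5 genes for activators and the inhibitor Psmf1, 2 were higher and 2 lower in C2C12 LPS against control (background 31.1% and 32.1%). In LPS-MIC-1 against LPS 1 was higher and 3 lower (background 41.4% and 43.2%). Psme3, the activator of the nuclear core, had the largest values, -0.76 and 0.63 (SE 0.0605 for both). Psme1 fell in both comparisons (-0.42 and -0.51), and Psme2, its partner in the interferon-inducible activator, rose and then fell (0.54 and -0.54). In muscle LPS-MIC-1 against LPS 2 of the 5 were higher and 1 lower (background 28.3% and 28.2%). Psmf1 went from 5.34, 5.37 and 5.76 FPKM to 7.64, 8.39 and 7.96 FPKM (0.54, SE 0.0706, adjusted p = 0.000272). Psme1 was not called there (0.09, adjusted p = 0.0626) but was higher with the FPKM sum (0.22, adjusted p = 0.00221). Psme2 was lower (-0.15, adjusted p = 0.049), a call lost with the FPKM sum (-0.019, adjusted p = 0.805). Of 5 other proteins of the 19S particle, 1 was higher in C2C12 LPS-MIC-1 against LPS, the ubiquitin receptor Adrm1 (1.06, SE 0.0779), and 3 were higher in that comparison of muscle, led by Txnl1 (0.70, SE 0.0653), a redox protein bound to the particle. None was lower in either. In LPS against control 1 was higher (Txnl1, 0.55) and 1 lower in C2C12 cells, and none was called in muscle (background 8.25% and 7.48%). The backgrounds of the other comparisons are those given for the activators.

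Nfe2l1 encodes the transcription factor that raises proteasome genes when the proteasome is impaired, and Ddi2 the protease that activates it. In C2C12 cells Nfe2l1 measured 47.8, 47.2 and 47.9 FPKM for control, 133, 131 and 130.1 FPKM for LPS and 99.9, 101 and 118 FPKM for LPS-MIC-1. Against control it was higher in LPS (1.46, SE 0.0642, adjusted p = 6.03e-07) and in LPS-MIC-1 (1.15, SE 0.0642, adjusted p = 6.51e-07), and against LPS it fell with MIC-1 (-0.31, adjusted p = 0.00199). Its part in the subunit levels was not tested. In muscle it measured 102, 95.8 and 96.9 FPKM, 107, 106 and 108 FPKM and 164, 166 and 155 FPKM, and it was higher in LPS-MIC-1 than in LPS (0.59, SE 0.038, adjusted p = 3.64e-06).

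Ddi2 moved in opposite directions in the tissues, and that difference was not tested. In muscle it went from 3.95, 3.72 and 5.26 FPKM in LPS to 44.7, 46.4 and 39.5 FPKM in LPS-MIC-1 (3.32, SE 0.148, adjusted p = 4.26e-07), and in C2C12 cells from 32.7, 31.9 and 30.3 FPKM to 3.61, 2.33 and 2.40 FPKM (-3.49, SE 0.154, adjusted p = 1.5e-07). Nfe2l2, the factor of the oxidative stress response, fell in C2C12 cells with MIC-1 against LPS alone (-0.47, adjusted p = 0.00616) and rose in muscle (0.95, SE 0.0425, adjusted p = 4.27e-07). In LPS against control it was lower in C2C12 cells (-0.32, adjusted p = 0.0481) and higher in muscle (0.19, adjusted p = 0.0216).

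Upstream of the proteasome, Uba1 and Uba6 encode enzymes that activate ubiquitin. In C2C12 cells Uba6 stood at 8.47, 8.38 and 8.05 FPKM in control and 17.5, 17.8 and 18.3 FPKM in LPS, a 2.14-fold rise (adjusted p = 2.2e-05). In LPS-MIC-1 it fell against LPS (log2 fold change -3.39, SE 0.0954). Uba1 was not called in C2C12 LPS against control (0.046, adjusted p = 0.46), though it was lower with the FPKM sum (-0.29, adjusted p = 0.000789), and rose in LPS-MIC-1 against LPS (0.53, SE 0.05). In muscle LPS against control Uba1 was higher (0.47, adjusted p = 0.0478), from 35.4, 27.6 and 41.2 FPKM to 50.3, 50.3 and 42.7 FPKM, a call lost after quantile normalization (adjusted p = 0.0552). Of 6 shuttle factors and the p97 segregase, 3 were lower and none higher in C2C12 LPS against control (background 32.1% and 31.1%), led by Ubqln4 (-0.80, SE 0.0469). In LPS-MIC-1 against LPS 2 were higher and 3 lower (background 41.4% and 43.2%), and Vcp (p97) rose by 1.33 (SE 0.0422). In muscle 2 and then 3 of the 6 were higher in the same comparisons, led by Rad23b (0.32, SE 0.0439) and Ubqln2 (0.52, SE 0.0851). None was lower, and 8.25% and then 28.3% of all genes were called higher, 7.48% and then 28.2% lower.

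Of 4 atrophy ligases, all tested in muscle, 1 was higher and 2 lower in LPS against control (background 8.25% and 7.48%). In LPS-MIC-1 against LPS 3 were higher (background 28.3%). Trim63 measured 79.4, 73.9 and 83.2 FPKM in LPS and 2259.9, 2323 and 2206 FPKM in LPS-MIC-1 (4.84, SE 0.0429, adjusted p = 7.47e-11, limma), and Fbxo32 22.2, 21.0 and 22.5 FPKM against 228, 231 and 216 FPKM (3.35, SE 0.0391, adjusted p = 4.21e-10). Against control Fbxo32 was lower in LPS (-0.61, SE 0.0391, adjusted p = 4.77e-05), as was Trim63 (-0.17, adjusted p = 0.03), whose call was lost after quantile normalization (adjusted p = 0.054) and with the FPKM sum (0.0645). In C2C12 cells only Fbxo30 and Fbxo21 were above 1 FPKM on average. Fbxo30 was higher in LPS than in control (1.47, SE 0.203, adjusted p = 0.000322), and Fbxo21 was called lower with MIC-1 (-3.40, SE 1.05, adjusted p = 0.0157), with libraries that overlap (4.60, 1.26 and 2.95 FPKM against 0, 1.57 and 0 FPKM). In the same comparison of muscle the subunits had log2 fold changes between -0.25 and 0.74.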

How the data were processed

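RNA from C2C12 cells and gastrocnemius muscle was sequenced by the authors, who pseudoaligned the reads with kallisto. The authors deposited 1 FPKM value per gene and library, and the submitters' processing notes name the build mm9. Strand handling is not given in the sources used here. The muscle file has 11 columns without a name, 9 of them with values per sample, which were not used. Tables of the authors' own comparisons (fold changes and p-values) were not used.

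Genes with a mean above 1 FPKM over the 9 libraries of a tissue were tested on log2(FPKM + 0.1), so fold changes of low genes are understated, with limma 3.58.1 in R 4.3.3 (group means, moderated variances with a trend, 3 groups of 3 sharing 1 estimate of spread). Benjamini-Hochberg adjustment ran over every tested gene of a comparison, 10877 in C2C12 cells and 9475 in muscle. A call is an adjusted p under 0.05. The tissues were fitted separately. Deposited values had the same median-ratio size factor in all libraries of a tissue. The procedure was run on simulated data with independent normal noise and a small set of changed genes. Far larger shares of genes were called in the C2C12 data, so that run is no check of these calls or of the scaling. Alternatives changed the pseudocount (0.01 or 1), the minimum mean (none or 5 FPKM), the scaling, the variance trend, a block for the replicate number and the libraries fitted.

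The subunits, the other lists and the tests were chosen with earlier results of these data known. Full values are given for the 5 subunits with the largest absolute log2 fold change in LPS against control and in LPS-MIC-1 against LPS in each tissue, the catalytic subunits, the highest and lowest subunits, and in the other lists the inducible subunits, Psme1, Psme2, Nfe2l1, Nfe2l2, Fbxo32, Trim63 and the gene with the largest change. Other genes are named only as calls, levels or examples. The counts over 1 list, that of ubiquitin and its activating enzymes, are not reported here. Depth per library is unknown, since only 23.7% to 42.3% of low values in the other libraries lay on 1 shared step, and no counting intervals are given. Replicate numbers were checked for pairing by correlating deviations from the group means. These correlations lay between -0.0757 and 0.0823, so the numbers were not taken as pairs. The labels give 10 μM MIC-1 for the cells and another dose stands in the study's text. No gene or promoter sequence was used here.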

Additional observations from a re-analysis of the deposited data

Results flagged for a closer look

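For 11 comparisons of a subunit gene, every library of one group lay above every library of the other in C2C12 cells and below in muscle, or the reverse. The tissues were normalized separately and the difference between them was not tested. Values are log2 fold changes, first in C2C12 cells and then in muscle.

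In LPS against control, Psmd2, a scaffold of the 19S base, stood at 0.31 and -0.056, the ubiquitin receptor Psmd4 at 0.28 and -0.13, and the lid gene Psmd6 at -0.40 and 0.17. None of these was called in muscle, and Psmd2 and Psmd4 in C2C12 cells turned negative with the FPKM sum.

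In LPS-MIC-1 against LPS, the lid genes Psmd11 and Psmd8 stood at -1.50 and 0.58 and at -1.27 and 0.74. Their lid neighbour Psmd6 stood the other way, at 1.32 and -0.25. Psmb5, the chymotrypsin-like subunit, stood at 1.15 and -0.19, and Psma1 of the alpha ring at -0.42 and 0.19.

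In LPS-MIC-1 against control, which shares libraries with the comparison above, Psmb5 stood at 1.20 and -0.27, Psmb6 at 1.16 and -0.13, and Psma1 at -0.48 and 0.22. Over all genes tested in both tissues, 15.1%, 33.2% and 32.8% were apart in opposite directions in the 3 comparisons, against 3, 5 and 3 of the 30 subunits. The C2C12 groups also differ in myoblast and macrophage markers, whose part was not tested.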

How the results depend on the processing

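Of 2650 values recomputed under an alternative (counts, medians and ratios of the subunits, and the genes described in full), 2386 were scored as unchanged. Of the values of single genes, 2081 kept their direction and their side of the threshold, and 28 changed direction. Counts, medians and ratios were scored by size alone, with 305 unchanged, so sign changes of medians are not among the 28. The C2C12 median for LPS against control turned from 0.03 to -0.31 with the FPKM sum and to -0.03 with quantile normalization. That of muscle turned to -0.0066 without control replicate 1. Over all subunits, whether called or not, quantile normalization or the FPKM sum turned the sign of 11, 3 and 4 in C2C12 LPS against control, LPS-MIC-1 against LPS and LPS-MIC-1 against control, and of 4, 6 and 5 in muscle. Dividing by the FPKM sum, leaving out Psmc2 and leaving out Psmd8 and Psmd11 were chosen after seeing the data. Without the last pair, the 20S to 19S ratio was 1.98, 2.11 and 1.69 in C2C12 control, LPS and LPS-MIC-1 and 1.62, 1.59 and 1.42 in muscle. In C2C12 LPS against control the FPKM sum gave 5 higher and 19 lower subunits with a median of -0.31, and quantile normalization 12 lower. A fit of the 6 libraries alone gave 11 lower, where 42.2% of all genes were. The study's thresholds gave 3 higher and 0 lower. In LPS-MIC-1 against LPS quantile normalization gave 7 lower and a median of 0.46, and the study's thresholds 11 higher. Against control quantile normalization gave 3 lower and a median of 0.51, and the FPKM sum 4 lower and a median of 0.51. The study's thresholds left fewer calls of either kind. Their counts are not given, as no share of all genes stands beside them.

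In muscle LPS against control the higher count was 2 with a pseudocount of 1, a minimum mean of 5 FPKM, quantile normalization or the 6 libraries alone. It was 3 with the FPKM sum, and 0 without the variance trend or at the study's thresholds. Under these alternatives, the thresholds aside, 7.38% to 13.4% of all genes were called higher. The lower count was 0 without the FPKM filter, without the trend, with the FPKM sum, with the 6 libraries alone or at the study's thresholds. The thresholds again aside, 4.09% to 7.35% of all genes were called lower there. The median was 0.0089 with quantile normalization and 0.058 with the FPKM sum. In LPS-MIC-1 against LPS the median was 0.16 with quantile normalization and 0.36 with the FPKM sum, which left 0 lower, and the study's thresholds left 0 in either direction. Against control quantile normalization gave 4 lower (36% of all genes) and a median of 0.16. The FPKM sum gave 1 lower (19.7% of all genes) and a median of 0.39. The fit without trend gave 1 lower (28.1% of all genes), and the study's thresholds 0 in either direction. The cause of these changes was not tested.

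The replicate block gave 0 higher and 0 lower in muscle LPS against control, where 6.84% and 6.16% of all genes were called. It gave 9 and 8 in C2C12 LPS against control, where 30.4% and 31.8% were. The block moved no other count of subunits by more than 1.5 times. The samples share only a number: 2 of 9 C2C12 and 5 of 9 muscle libraries correlated best with their own number, a hint from the data and not the design.

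Leaving out 1 library at a time, C2C12 LPS against control had 7 to 13 higher and 6 to 11 lower with a median of 0.00 to 0.07. Of all genes 28% to 35.1% were called higher and 28.9% to 36.2% lower. LPS-MIC-1 against LPS had 3 to 5 lower (41.1% to 45.3% of all genes), and LPS-MIC-1 against control 1 to 2 lower (39.1% to 44.3%). Muscle LPS against control had 0 to 3 higher and 0 to 1 lower with a median of -0.0066 to 0.032. Of all genes 5.41% to 8.63% were higher and 4.94% to 7.92% lower there. Muscle LPS-MIC-1 against control had 1 to 2 lower (25.3% to 27.4% of all genes) with a median of 0.22 to 0.27. In C2C12 LPS-MIC-1 against LPS, Psmb6 ranged from -0.13 to 0.029 and Psmc2 from -0.49 to 0.35. In muscle LPS against control, Psme1 ranged from -0.028 to 0.026, Psme2 from -0.045 to 0.047 and Ubqln2 from -0.016 to 0.14, and in LPS-MIC-1 against LPS Psmb7 ranged from -0.073 to 0.011.

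Among the genes described in full, the other changes of direction came from scaling. In C2C12 LPS against control Psmb5 turned to -0.0024 with quantile normalization, and with the FPKM sum Psmb5 turned to -0.29, Psmb7 to -0.069 and Adrm1 to -0.20. In LPS-MIC-1 against LPS quantile normalization gave -0.077 for Psmc6 and -0.27 for Psmb7. In muscle LPS against control it gave -0.021 for Psmb7, -0.031 for Psme1 and -0.041 for Psme2. In muscle LPS-MIC-1 against LPS it gave -0.050 for Psmd14 and -0.063 for Psmb10, and the FPKM sum gave 0.089 for Psmb7, 0.098 for Psmb6, 0.084 for Uba1 and 0.087 for Rad23b. Depth is unknown, so the precision of low values such as those of Psmc2 cannot be given.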
